A study of Mus musculus with 61 samples.

Results

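Adenylyl cyclases are the enzymes that make cyclic AMP (cAMP) from ATP. The 9 membrane-bound family members, Adcy1 to Adcy9, were read by symbol from the 55401 rows of a count table, and all 9 passed the filter on low counts. The libraries hold RNA of nuclei sorted from the nucleus accumbens (ventral striatum) of male mice that carried either D1-Cre or D2-Cre together with LSL-eGFP::L10a. The Cre driver switches on a green fluorescent tag in cells that use the dopamine D1 or D2 receptor promoter, so every group, the saline controls included, carries a driver and the tag. Mice received daily injections for 15 days, spent 30 days in the home cage, and were killed 1 h after a challenge injection. The first letter of a group gives the daily injections and the second the challenge, M for morphine and S for saline. There were 7 MM, 8 MS, 7 SM and 7 SS libraries of D2 nuclei, and 7 MM, 9 MS, 8 SM and 8 SS libraries of D1 nuclei. A library held between 11518606 and 26108954 counts (median 17924400). The labels assign no morphine dose to a mouse and do not say whether a library is 1 mouse or a pool, so p-values measure the spread between these libraries, which may be partly technical.

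Each adenylyl cyclase answers to a different set of inputs. Adcy1, Adcy3 and Adcy8 are stimulated by calcium and calmodulin, Adcy2, Adcy4 and Adcy7 by G protein beta-gamma subunits together with Gs, and Adcy5 and Adcy6 are inhibited by Gi and by calcium, while Adcy9 responds only weakly to the plant compound forskolin. In the striatum Adcy5 is known as the main isoform: Golf, the olfactory type of Gs protein, drives it from dopamine D1 receptors in one class of projection neuron and from adenosine A2a receptors in the other, and Gi-coupled receptors, among them dopamine D2 and mu opioid receptors, restrain it. Morphine acts at the mu opioid receptor.

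Adcy5 lies on the plus strand of mouse chromosome 16, at chr16:35154877-35305738 in build mm10, and spans 150.862 kb, of which 4.76% is exon. Adcy9 lies on the minus strand of the same chromosome, at chr16:4287529-4420498, and spans 132.97 kb. The other members sit on chromosomes 11 (Adcy1), 13 (Adcy2), 12 (Adcy3), 14 (Adcy4), 15 (Adcy6 and Adcy8) and 8 (Adcy7). The shortest spans were 15.039 kb for Adcy4 and 20.104 kb for Adcy6, and the longest was 379.499 kb for Adcy2.

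The 250 bases before the RefSeq transcription start are printed for Adcy5 and Adcy9, because these are the members with the highest levels and, as described further on, they varied together across libraries. Both are read 5′ to 3′ from RefSeq on GRCm38.p6, at chr16:35154614-35154863 on the plus strand for Adcy5 and at chr16:4420499-4420748 on the minus strand for Adcy9. Capitals mark a match to the short form of the cAMP response element, the sequence bound by the transcription factor CREB.
Adcy5: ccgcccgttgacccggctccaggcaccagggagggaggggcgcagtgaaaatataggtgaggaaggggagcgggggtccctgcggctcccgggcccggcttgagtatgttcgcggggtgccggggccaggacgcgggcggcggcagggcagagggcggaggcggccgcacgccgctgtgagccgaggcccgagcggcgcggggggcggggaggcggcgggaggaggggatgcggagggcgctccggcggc
Adcy9: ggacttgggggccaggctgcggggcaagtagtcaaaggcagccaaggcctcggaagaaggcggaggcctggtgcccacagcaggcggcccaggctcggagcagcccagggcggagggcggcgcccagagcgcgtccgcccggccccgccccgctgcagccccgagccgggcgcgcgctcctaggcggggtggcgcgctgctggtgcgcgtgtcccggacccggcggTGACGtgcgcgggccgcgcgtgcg
Both windows were rich in G and C, with 78% for Adcy5 and 78.8% for Adcy9, against a median of 52.4% over all 32851 windows of this kind. The Adcy9 window held 1 short form, written TGACG or CGTCA and searched on both strands, which began 24 bases before the start, and the Adcy5 window held none. Of the 10 windows found for 7 of the members, 2 held the short form, the other one in a window of Adcy7, where it began 28 bases before the start. Among all windows, 17.8% held the short form and 1.55% held the full element TGACGTCA, which contains the short form on each strand. None of the 10 windows held the full element. A match is a description of letters and not a bound site.

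Levels are given as CPM, counts scaled to the library total, per kb of gene span, which equalled the deposited FPKM of every member. In D2 nuclei Adcy5 ran from 1.88 to 10.7 with a median of 5.12 over 29 libraries. In D1 nuclei it ran from 2.08 to 13.6 with a median of 5.44 over 32 libraries. Per kb of span, Adcy5 was the highest member in every library of either cell type. It made up a median 43.7% of the summed level of the family in D2 nuclei and 45.4% in D1 nuclei.

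Adcy9 came next, with a median level of 1.17 in D2 nuclei and 1.20 in D1 nuclei. It was above Adcy1, the calcium-stimulated isoform known from cortex and hippocampus, in 25 of 29 D2 and 28 of 32 D1 libraries. Adcy1 (median level 0.905 in D2 and 0.910 in D1 nuclei) and Adcy3, the cyclase of olfactory cilia and of primary cilia (0.901 in D2 and 0.897 in D1 nuclei), could not be ordered: Adcy1 was the higher of the pair in 18 of 29 D2 and 19 of 32 D1 libraries. Adcy4 and Adcy6 likewise changed places between libraries, with medians of 0.859 and 0.850 in D2 nuclei and 0.814 and 0.847 in D1 nuclei. Adcy7 and Adcy2 were lower, at medians of 0.704 and 0.701 in D2 nuclei and 0.666 and 0.706 in D1 nuclei. Adcy8 was lowest, at a median of 0.472 in D2 and 0.436 in D1 nuclei.

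**Figure D1:**
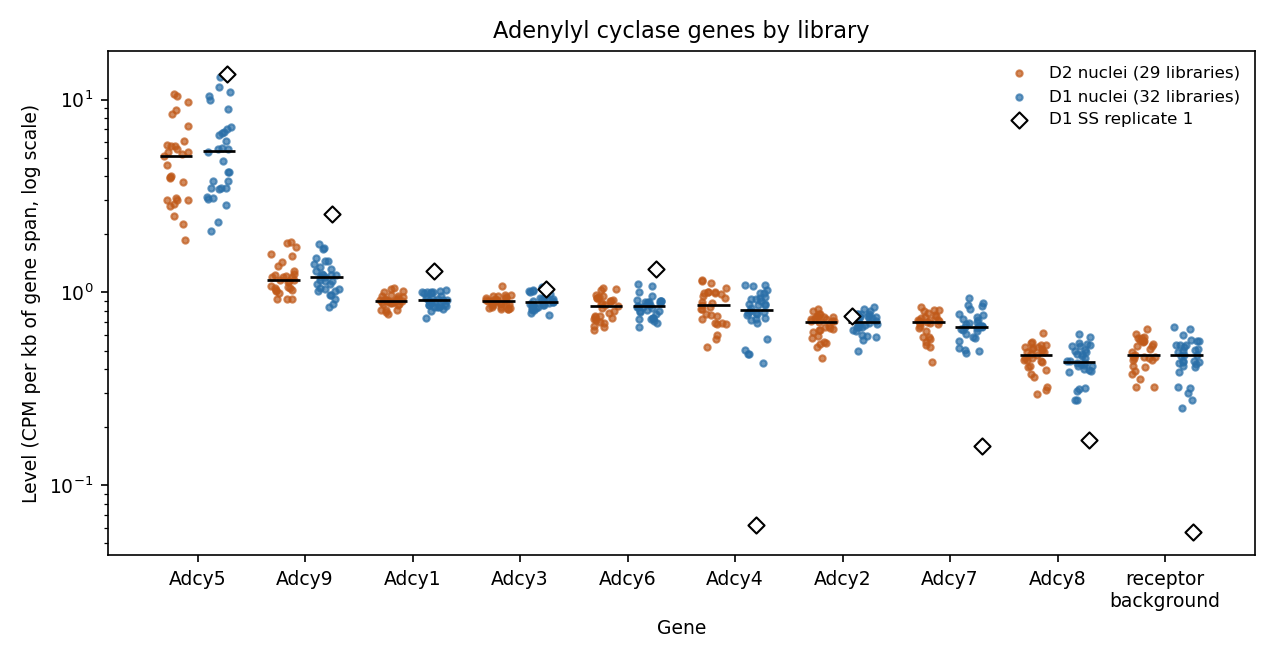
Level of each adenylyl cyclase gene in every library, in CPM per kb of gene span on a log axis, with D2 nuclei left of D1 nuclei and black bars at the medians; the last column is the density over receptor genes of the nose, and diamonds mark D1 SS replicate 1. Adcy5 stands above the other 8 genes in all 61 libraries, and Adcy8 has a median of 0.949 times the density of the receptor genes, and 3.02 times in the library marked with a diamond.

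These levels sit on a background. Over 1420 olfactory and vomeronasal receptor genes, which the striatum is not known to use, the density of counts had a median of 0.476 CPM per kb in D2 and 0.472 in D1 libraries. Applied to the summed length of all genes, it would account for a median of 62.1% of the counts in D2 and 61.6% in D1 libraries. D1 SS replicate 1 stands apart, with a density of 0.0571 against 0.253 to 0.659 in the other 60 libraries, and with a scaling factor of 0.388 against 0.811 in the next lowest library. Its summed level of 5 cortical glutamatergic markers was 17.6, above the 2.01 to 8.22 of the other D1 libraries. Each of the 5 had counts over the 61 libraries together, but 0 of them had a median of 2 times the receptor density or more. A sum includes background, which was lower in this library, so the sums are not on an equal footing. The part that other nuclei have in the values of D1 SS replicate 1 was not tested. The main values that rest on that library are given with and without it.

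Measured against that background, Adcy5 and Adcy9 were the members with a median above 2 times the receptor density. Adcy5 had a median of 10.8 times the density over 61 libraries, which placed it 103rd among 21193 protein-coding genes, and Adcy9 had 2.56 times. Adcy1, Adcy3, Adcy6 and Adcy4 were at 1.93, 1.91, 1.80 and 1.69 times, Adcy7 and Adcy2 at 1.45 times each. Adcy8 was at 0.949 times, which is the level of the receptor genes themselves.

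D1 SS replicate 1 is the library with the least background. In it, Adcy5 was at 13.6 CPM per kb and made up 65.0% of the family, and Adcy9 was at 2.55. Adcy6 (1.33), Adcy1 (1.29), Adcy3 (1.04) and Adcy2 (0.754) were each at least 13.2 times the receptor density of that library. Adcy8 (0.172) and Adcy7 (0.159) were at 3.02 and 2.79 times, and Adcy4 (0.0626, from 24 counts) was at 1.10 times. Removing the receptor density from each library and rescaling the rest, a calculation chosen after the data were seen, gave Adcy5 a median of 12.1 CPM per kb in D2 and 12.2 in D1 nuclei, and Adcy9 1.88 and 1.85. With it, Adcy5 made up a median 61.5% of the family in D2 and 62.7% in D1 nuclei.

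The order of the members depends on the length used. Per kb of exon, Adcy2 moved to second place with a median of 63.2 CPM per kb in D2 and 63.6 in D1 nuclei, behind Adcy5 with 107.5 and 114.2. On that scale Adcy5 was above Adcy2 in 20 of 29 D2 and 26 of 32 D1 libraries, and with no length at all in 28 of 29 and 31 of 32. Exons make up 1.11% of the Adcy2 span. Gene neighbours also limit some values. Adcy8 shares 104603 bases with Gm21798 on the other strand and Adcy3 shares 17522 bases with Cenpo on the other strand, and since the strand setting of the counting is not given, counts of such pairs cannot be told apart.

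Across all 61 libraries 7 of the 9 members went with or against the receptor density by Pearson r and Spearman rho alike. The Adcy5 level had a Pearson r of -0.91 and a Spearman rho of -0.898 with it, and Adcy9 an r of -0.939 and a rho of -0.923. Adcy3 also ran against it (r = -0.761, rho = -0.732). Adcy8 (r = 0.974, rho = 0.966), Adcy7 (r = 0.802, rho = 0.738), Adcy4 (r = 0.777, rho = 0.645) and Adcy2 (r = 0.72, rho = 0.838) ran with it. Each of these 7 relations had a p of 1e-05, the smallest that 100000 permutations give, or 1.29e-05 after adjustment over the 9 relations.

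Without the 2 libraries farthest from the median density, r was -0.894 for Adcy5, -0.911 for Adcy9 and 0.972 for Adcy8. For Adcy1, r was 0.132 (permutation p = 0.305, adjusted 0.343) and rho was 0.42 (permutation p = 0.00076, adjusted 0.000855), and without those 2 libraries r was 0.538, so its linear relation turned on them. Adcy6 had an r of -0.0338 (permutation p = 0.795) and a rho of 0.223 (permutation p = 0.0852). Within D2 and within D1 libraries r was -0.869 and -0.928 for Adcy5 and 0.961 and 0.982 for Adcy8. A level and the density share the library and its total, and a share of counts taken by one lowers all others.

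**Figure D2:**
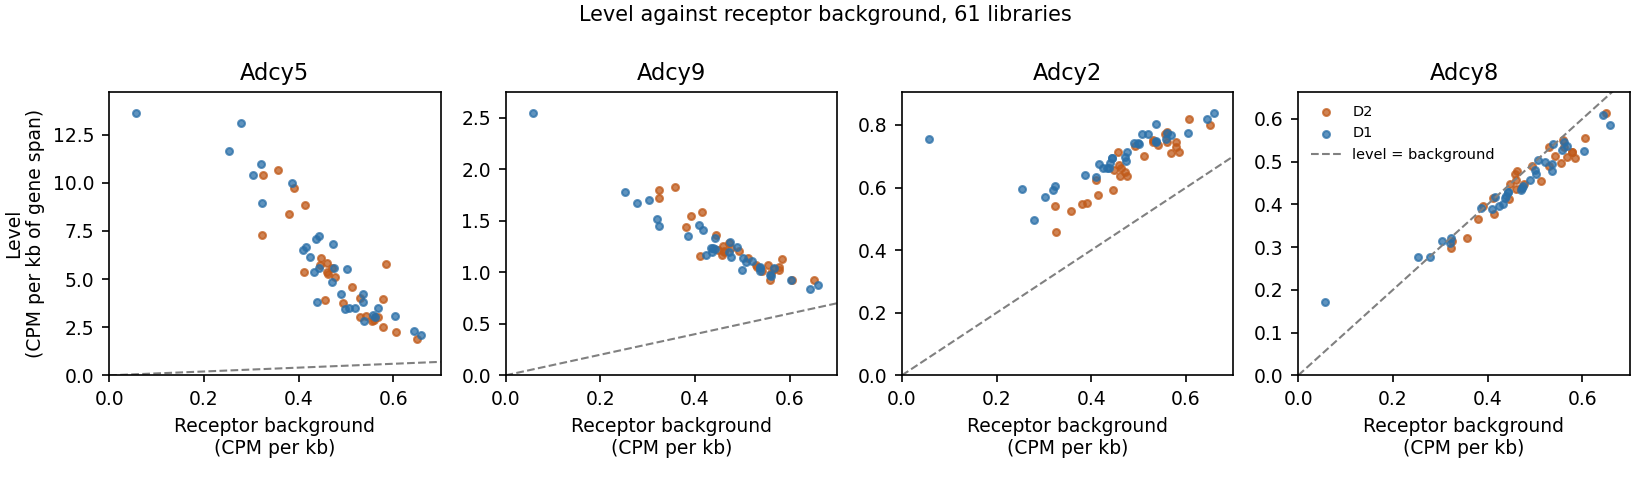
Level of Adcy5, Adcy9, Adcy2 and Adcy8 against the receptor density of the same library, both in CPM per kb, with D2 nuclei in orange, D1 nuclei in blue and the dashed line where level and density are equal. Adcy5 and Adcy9 are lower where the density is higher (r = -0.91 and -0.939 over 61 libraries), Adcy8 lies along the dashed line, and the single D1 point at the far left is SS replicate 1.

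The design asks whether a history of morphine, a morphine challenge or both alter the genes of these neurons. In D2 nuclei the members were closest to a change in the MS group, which had morphine history and a saline challenge. The Adcy5 level in D2 MS libraries had a lowest value of 3.74, a median of 5.83 and a highest value of 10.7, against 3.02, 3.10 and 5.35 in D2 SS libraries. Of the 8 MS libraries, 5 lay above the highest SS library, and the groups overlapped. The edgeR log2 fold change was 1.03 ± 0.37 (SE), with an adjusted p of 0.0744, which misses the threshold of 0.05.

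Adcy9 had a lowest value of 1.075, a median of 1.26 and a highest value of 1.83 in D2 MS libraries, against 0.991, 1.05 and 1.21 in D2 SS libraries. Here 7 of 8 MS libraries lay above the highest SS library (log2 fold change 0.51 ± 0.18 SE, edgeR adjusted p = 0.0725). Adcy3 was higher by a smaller amount, with a log2 fold change of 0.22 ± 0.09 (SE) and an edgeR adjusted p of 0.087. Adcy4, with a median of 1.69 times the receptor density over all libraries, differed the other way, by -0.29 ± 0.10 (SE) on the log2 scale (edgeR adjusted p = 0.0713). None of the 9 members was called, and neither was any of the 41125 genes tested (0% called).

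At an unadjusted p under 0.05, 4 of the 9 members differed, against 32% of all genes tested, and the median log2 fold change of the family was -0.05, as was that of all genes tested. The receptor density moved with this comparison, at a median of 0.460 CPM per kb in D2 MS and 0.530 in D2 SS libraries. With the log2 density as a covariate in edgeR, Adcy5 differed by 0.27 (adjusted p = 0.539) and Adcy9 by 0.14 (adjusted p = 0.388). In that fit the lowest log2 fold change of the family was -0.21. There 1 of the 9 members had an unadjusted p under 0.05, beside 13.7% of all genes. DESeq2 called 5 members (Adcy1, Adcy3, Adcy4, Adcy5 and Adcy9, with Adcy5 at 1.07 and an adjusted p of 0.0264), where it called 16.6% of all genes. A fit with the replicate number as a block called 4 members, Adcy3, Adcy4, Adcy5 and Adcy9, and 20.9% of all genes.

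The other D2 groups gave less. The Adcy5 level had a median of 5.72 in D2 MM libraries and 3.96 in D2 SM libraries, beside the 3.10 of D2 SS libraries, with ranges of 1.88 to 9.70 in MM and 2.27 to 5.83 in SM. The MM group held the lowest of all D2 libraries as well as one at 9.70, and it overlapped the SS group. The log2 fold change of Adcy5 was 0.75 ± 0.37 (SE) in MM against SS (edgeR adjusted p = 0.378) and 0.13 ± 0.37 (SE) in SM against SS (edgeR adjusted p = 1). Re-exposure, MM against MS, gave -0.28 ± 0.36 (SE) for Adcy5 and an edgeR adjusted p of 0.973.

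Adcy9 had a median level of 1.37 in D2 MM and 1.07 in D2 SM libraries. Its log2 fold change was 0.42 ± 0.18 (SE) in MM against SS (edgeR adjusted p = 0.363) and 0.44 ± 0.18 (SE) in MM against SM (edgeR adjusted p = 0.608). In each of these 2 comparisons Adcy9 was the single member with an unadjusted p under 0.05, beside 13.3% of all genes in the first and 7.73% in the second. Adcy1 differed by -0.12 ± 0.05 (SE) in MM against MS (edgeR adjusted p = 0.973), again the single member at an unadjusted p under 0.05, beside 3.76% of all genes. In SM against SS no member reached that p, beside 3.24% of all genes, and edgeR, limma voom and DESeq2 called none. The median receptor density was 0.445 CPM per kb in D2 MM, 0.559 in D2 SM and 0.530 in D2 SS libraries. With the log2 density as an edgeR covariate, the family's highest log2 fold change in MM against SS was 0.21, against 0.75 without. For MM against SM these were 0.11 and 0.62. Then 1 member had an unadjusted p under 0.05 in MM against SS, 0 in MM against SM and 2 in MM against MS. Of 41125 genes, 4939, 1600 and 2336 had one.

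**Figure D3:**
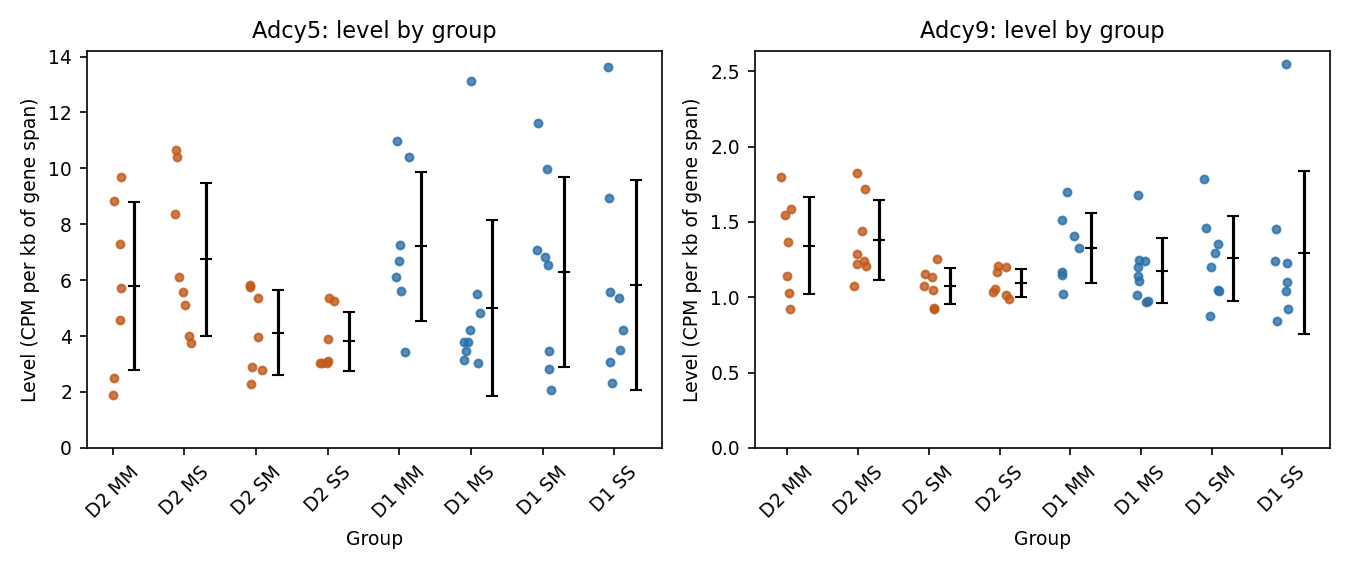
Level of Adcy5 (left) and Adcy9 (right) by group, in CPM per kb of gene span, with 1 point per library and the mean ± SD beside the points. D2 MS libraries of Adcy5 run from 3.74 to 10.7 and D2 SS libraries from 3.02 to 5.35, while all D1 groups overlap, with D1 SS replicate 1 (13.6) and D1 MS replicate 2 (13.1) as the highest points.

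In D1 nuclei the level of Adcy5 overlapped between all treatments. The lowest, median and highest values were 3.43, 6.68 and 10.99 in D1 MM, 3.04, 3.804 and 13.1 in D1 MS, 2.08, 6.68 and 11.6 in D1 SM, and 2.33, 4.78 and 13.6 CPM per kb in D1 SS libraries. The highest D1 SS value is the library that stands apart, and without it the highest was 8.94. Log2 fold changes against SS were -0.11 ± 0.51 in MM, -0.70 ± 0.48 in MS and -0.36 ± 0.49 in SM (SE), with edgeR adjusted p-values of 1, 0.824 and 0.955. Without that library they were 0.72, 0.13 and 0.48, of the opposite sign, with edgeR adjusted p-values of 0.665, 1 and 1.

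No member was called in any D1 comparison, and 0% of the 41083 genes tested were. Adcy6, the close relative of Adcy5, had an unadjusted p under 0.05 in SM against SS (-0.47 ± 0.22 SE, edgeR adjusted p = 0.955), beside 1.87% of all genes. It also did in MS against SS (-0.50 ± 0.21 SE, edgeR adjusted p = 0.824), together with Adcy1 (-0.43 ± 0.19 SE), beside 2.68% of all genes. Without D1 SS replicate 1, none of the 9 members reached that p in either comparison, beside 1.28% of all genes in SM against SS and 1.1% in MS against SS. In MM against SS, MM against MS and MM against SM no member did with all libraries, beside 1.92%, 2.29% and 1.34% of all genes. Leaving D1 SS replicate 1 out, Adcy1 did in MM against SS (0.14, edgeR adjusted p = 0.665), beside 5.68% of all genes, and Adcy1 (0.15) and Adcy6 (0.19) did in MM against MS (edgeR adjusted p = 0.786 each), beside 4.92%. In MM against SM none did, beside 2.88%. With the density as a covariate 3 members did in MM against SS, beside 8.5% of all genes. Leaving out D1 MS replicate 2 instead put Adcy5 at -1.15 ± 0.46 in MS against SS (SE, edgeR adjusted p = 0.427). It was at -0.70 with all libraries. Without D1 MS replicate 2, 5 of the 9 members had an unadjusted p under 0.05, beside 11.6% of all genes. For MM against MS, Adcy5 differed by 0.583 ± 0.495 (SE, edgeR adjusted p = 0.988) with all libraries. Without D1 MS replicate 2 the highest log2 fold change of the family there was 1.03, and 1 member had an unadjusted p under 0.05, beside 2192 of 41084 genes.

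The response to the challenge was also compared between histories, as MM minus MS less SM minus SS. Adcy6 differed by 0.65 ± 0.31 (SE) in D1 nuclei (unadjusted p = 0.0412, edgeR adjusted p = 0.782), where 2.32% of all genes had an unadjusted p under 0.05. In D2 nuclei no member reached it with all libraries and no covariate, beside 3.56% of all genes. With the density as a covariate 1 member did, beside 3751 of 41125 genes. For Adcy5 this difference was -0.41 ± 0.52 (SE) in D2 and 0.94 ± 0.70 (SE) in D1 nuclei. Without D1 SS replicate 1 the D1 values were 0.11 for Adcy5 and 0.20 for Adcy6 and no member reached an unadjusted p under 0.05 (1.53% of all genes did). Without D1 MS replicate 2 the D1 value of Adcy5 was 1.39 (edgeR adjusted p = 0.499), and 2 members reached that unadjusted p, beside 3796 of 41084 genes.

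Between the cell types, none of the members was called when the 4 treatments were averaged, against 0.301% of the 42870 genes tested. The sort itself is visible in the receptors that act on these enzymes. Drd2, the dopamine D2 receptor, was higher in D2 nuclei by 3.31 ± 0.17 (SE) on the log2 scale (edgeR adjusted p = 1.59e-22), and Drd1, the dopamine D1 receptor, differed by -2.67 ± 0.18 (edgeR adjusted p = 2.77e-17). These were 3.41 and -2.52 without D1 SS replicate 1. The summed level of 6 D2 projection neuron markers ran from 44.3 to 132 in D2 and from 8.82 to 55.7 in D1 libraries. That of 8 D1 projection neuron markers ran from 10.0 to 25.9 in D2 and from 22.5 to 99.6 in D1 libraries. Each marker had counts over the 61 libraries together, and 4 of the 6 and 5 of the 8 had a median of at least 2 times the receptor density. Drd1 was at a median of 5.15 times the density in D2 nuclei, and Drd2 at 2.39 times in D1 nuclei. By median, each of these receptors was thus above the background in the other sort as well.

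Adcy5 differed between D2 and D1 nuclei by -0.46 ± 0.23 (SE) on the log2 scale (unadjusted p = 0.0474, edgeR adjusted p = 0.408). Its mean TMM-scaled CPM was 800 ± 468 in D2 and 1048 ± 961 in D1 nuclei (SD, n = 29 and 32). Without D1 SS replicate 1 the difference was -0.26 ± 0.20 (SE, edgeR adjusted p = 0.791), and with the density as a covariate it was 0.01 ± 0.12 (SE). Adcy2 differed by -0.16 ± 0.06 (SE, edgeR adjusted p = 0.387), and by -0.08 ± 0.02 without D1 SS replicate 1 (edgeR adjusted p = 0.0771). These were the 2 members at an unadjusted p under 0.05, beside 12.2% of all genes, and the other 7 lay between -0.21 and 0.10. When D1 SS replicate 1 was left out, Adcy2 was the single member at that p, beside 6.81% of all genes. In bulk samples, fewer cells of a type and less RNA per cell cannot be told apart.

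Within SS alone the same comparison looked larger. Adcy5 had a lowest value of 3.02, a median of 3.10 and a highest value of 5.35 CPM per kb in D2 SS libraries, against 2.33, 4.78 and 13.6 in D1 SS libraries. The log2 fold change was -1.25 ± 0.47 (SE, edgeR adjusted p = 0.0991), and 6 of the 9 members had an unadjusted p under 0.05, beside 27.9% of all genes. No member was called, against 0.0467% of all genes. Without D1 SS replicate 1, Adcy5 differed by -0.41 ± 0.42 (SE, edgeR adjusted p = 0.924) and no member reached an unadjusted p under 0.05, beside 3.56% of all genes. DESeq2 called 4 members (Adcy2, Adcy3, Adcy5 and Adcy9), where it called 23.2% of all genes, and edgeR with RLE size factors called 6 and 19.2% of all genes.

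In SM, MS and MM the D2 and D1 nuclei differed for Adcy5 by -0.75 ± 0.46, 0.50 ± 0.43 and -0.36 ± 0.48 on the log2 scale (SE), with edgeR adjusted p-values of 0.894, 0.999 and 0.98. No member was called in any of the 3 treatments, where 0.0303%, 0.0746% and 0.056% of all genes were, and none reached an unadjusted p under 0.05, beside 2.16%, 2% and 4.89% of all genes. Adcy5 differed by -0.75, 0.49 and -0.36 without D1 SS replicate 1, which is in none of these groups. Then Adcy2 had an unadjusted p under 0.05 in MS (-0.12, edgeR adjusted p = 0.792), beside 4.28% of all genes. In MM, Adcy1 (-0.17), Adcy2 (-0.10) and Adcy6 (-0.22) did, beside 8.47% of all genes, with edgeR adjusted p-values from 0.288 to 0.532. In SM none did, beside 4.79%. With the density as a covariate 3 members did in MS, beside 5.26% of all genes. Without D1 MS replicate 2 the highest log2 fold change of the family in MS was 0.94, against 0.50 with all libraries. In that fit 1 member had an unadjusted p under 0.05 in MS, beside 2091 of 42850 genes. In SM and MM none did, beside 1022 and 2289 genes.

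**Figure D4:**
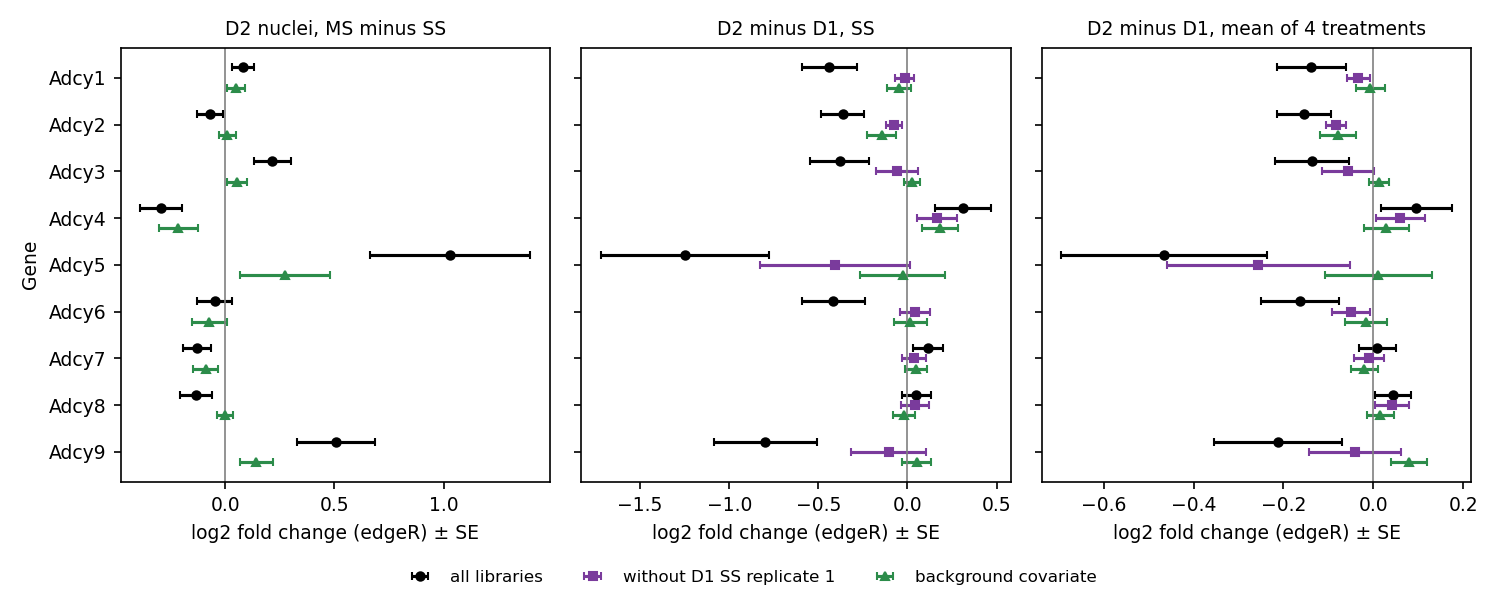
Log2 fold change ± SE from edgeR of the 9 adenylyl cyclase genes for MS minus SS in D2 nuclei, D2 minus D1 in SS, and D2 minus D1 over the mean of 4 treatments, with all libraries (black), without D1 SS replicate 1 (purple) and with the receptor density as a covariate (green). Adcy5 has the largest value in each panel with all libraries (1.03, -1.25 and -0.46) and moves toward 0 with the covariate (0.27, -0.03 and 0.01).

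The difference between MS and SS was itself compared between the cell types. For Adcy5 it was larger in D2 than in D1 nuclei by 1.75 ± 0.64 (SE, unadjusted p = 0.00785, edgeR adjusted p = 0.149), and for Adcy9 by 1.12 ± 0.39 (SE, edgeR adjusted p = 0.149). Adcy1, Adcy3, Adcy5 and Adcy9 had an unadjusted p under 0.05, beside 24.7% of all genes, and no member and no gene was called (0%). Without D1 SS replicate 1 the Adcy5 value was 0.90 ± 0.57 (SE) and that of Adcy9 0.42 ± 0.28 (SE), with an edgeR adjusted p of 0.647 each, and no member had an unadjusted p under 0.05, beside 5.97% of all genes.

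Leaving out D1 MS replicate 2 instead, a choice made after its levels were seen, gave 2.21 ± 0.61 (SE, edgeR adjusted p = 0.0406), and Adcy3, Adcy5 and Adcy9 were called, as were 11.8% of all genes. That library had an Adcy5 level of 13.1, next to 5.51 in the second highest D1 MS library, and a receptor density of 0.278 CPM per kb. DESeq2 called Adcy3, Adcy5 and Adcy9 with all libraries, where it called 14.4% of all genes. With the density as a covariate Adcy5 was at 0.36 ± 0.33 (SE, edgeR adjusted p = 0.85). The differences of SM against SS, MM against SS and MM against MS held no member at an unadjusted p under 0.05 with all libraries, beside 2.46%, 6.74% and 3.57% of all genes. With D1 SS replicate 1 left out, Adcy1 (-0.16) and Adcy6 (-0.26) had one in MM against SS, beside 4.81% of all genes, and Adcy1 (-0.27), Adcy3 (-0.34) and Adcy6 (-0.28) in MM against MS, beside 7.7%. Their edgeR adjusted p-values were between 0.512 and 1, and in SM against SS no member had one, beside 2.33% of all genes. With the density as a covariate 1 member had one in MM against MS, beside 6.9% of all genes. Without D1 MS replicate 2 also 1 member had one in MM against MS, beside 4516 of 42850 genes. The lowest log2 fold change of the family was then -1.29, against -0.85 with all libraries.

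The genes whose scaled log2 CPM ran most closely with Adcy5 over the 61 libraries were Camk2b, the beta subunit of calcium/calmodulin-dependent kinase II (r = 0.991), Baiap2, a scaffold of dendritic spines (r = 0.991), Cpne5 (r = 0.989), Trank1 (r = 0.987) and Pde2a, a phosphodiesterase that degrades cAMP and cGMP (r = 0.987). These r values were between 0.982 and 0.993 in D2 libraries alone or in D1 libraries alone, for 6642 genes compared. Adcy9 followed Adcy5 at 0.934 and Adcy3 at 0.902. For Adcy2 the closest genes were Dpp10 (r = 0.891), Kcnmb4 (r = 0.824), Prickle1 (r = 0.816), Ccdc136 (r = 0.803) and Sv2b, a synaptic vesicle protein (r = 0.782), but without D1 SS replicate 1 these were 0.161, -0.214, -0.201, 0.00108 and -0.0666. All such r values share the libraries, their totals and their background.

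Around the enzymes, a list of 90 cAMP pathway genes, 89 of them in the table, was set beside the family. It holds receptors, G proteins, cyclase partners, phosphodiesterases, the kinase PKA and the exchange factor Epac with their anchors, and targets. In D2 against D1 nuclei 7 of the 89 were called with the treatments averaged, all of them receptors, beside 0.301% of all genes. Adora2a, the adenosine A2a receptor (1.41), Gpr6, an orphan receptor (1.42), Oprd1, the delta opioid receptor (0.54), and Drd2 were higher in D2 nuclei on the log2 scale. Chrm4, the muscarinic M4 receptor (-1.77), Drd3, the dopamine D3 receptor (-0.46), and Drd1 were lower. Their edgeR adjusted p-values were at most 5.73e-05. Of the 7 called, Drd1, Drd2, Adora2a, Gpr6 and Chrm4 are also among the projection neuron markers used above, so their calls are not separate from the sort. No G protein, cyclase partner, phosphodiesterase, PKA, Epac or target gene of the list was called in that fit. The fit without D1 SS replicate 1 called 8 of the 89, beside 0.376% of all genes. With the density as a covariate 11 were called, beside 0.59% of all genes: 9 receptors, 1 G protein and 1 phosphodiesterase. With all libraries and no covariate, the median log2 fold change over the list was -0.19, against 0.01 over all genes tested. With the covariate these medians were -0.00347 and -0.00293.

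Levels of the pathway genes per kb of span place the family among its partners. Gnal, which encodes Golf, had a median of 1.997 CPM per kb in D2 and 2.11 in D1 nuclei, above Gnas, which encodes Gs, with 0.863 and 0.734. Gng7, a gamma subunit that pairs with Golf in the striatum, was at 2.89 and 2.77. Oprm1, the mu opioid receptor, was at 1.03 times the receptor density in D2 and 1.04 times in D1 nuclei, so its median level was that of the background. In D1 SS replicate 1 it was at 0.259 CPM per kb, 4.53 times the density there. Pde1b and Pde10a, phosphodiesterases of striatal projection neurons, were at 6.94 and 2.40 in D2 and at 7.28 and 2.42 in D1 nuclei. Ppp1r1b, which encodes the PKA target DARPP-32, was at 5.96 in D2 and 7.18 in D1 nuclei.

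The list and all genes differ in level. In D2 nuclei 53 of the 89 list genes had a median of at least 2 times the receptor density. Among 21193 protein-coding genes, 24.1% did over the 61 libraries. The part that level has in comparisons of the list with all genes was not tested. In MS against SS of D2 nuclei none of the 89 was called by edgeR, while 67 had an unadjusted p under 0.05, beside the 32% of all genes given above, and the list's median was 0.43 against -0.05 over all genes tested. By class, 11 of 14 G proteins, 10 of 13 receptors, 13 of 17 targets, 13 of 20 PKA and Epac genes and 8 of 9 cyclase partners were higher at that p, and the other cyclase partner was lower. Of 16 phosphodiesterases, 8 were higher and 3 lower. Rgs9, which shortens G protein signals in the striatum, differed by 1.10 ± 0.36 (SE), Ppp1r1b by 1.03 ± 0.32, Pde10a by 1.02 ± 0.34 and Gnal by 0.63 ± 0.22, with edgeR adjusted p-values of 0.0714, 0.0713, 0.0714 and 0.0729. Oprm1 differed by 0.01 ± 0.04 (SE) and the G protein gene Gnai2 by 0.22 ± 0.11, with edgeR adjusted p-values of 0.864 and 0.175. The genes named here were picked after their values were seen. With the density as a covariate 22 of the 89 had an unadjusted p under 0.05, beside 13.7% of all genes. The list's median was then 0.14, against 0.01 over all genes tested. In that fit Ppp1r1b was at 0.46, Rgs9 at 0.35, Pde10a at 0.30 and Gnal at 0.18. The summed level of the 6 D2 projection neuron markers, some of which, Drd2 and Adora2a among them, are also in this list, had a median of 103 CPM per kb in D2 MS libraries, with a range of 52.3 to 131.5, against a median of 61.3 and a range of 44.3 to 89.9 in D2 SS libraries. Each of the 6 had counts over the 61 libraries together. The 8 D1 projection neuron markers summed to a median of 16.1 in D2 MS and 12.7 in D2 SS libraries. For 7 markers of projection neurons of either class the medians were 39.8 and 24.3. Sums of astrocyte, oligodendrocyte, microglia, endothelial and cortical glutamatergic markers had lower medians in D2 MS than in D2 SS libraries. The part of all these markers in the list's values was not tested.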

How the data were processed

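Per the labels' protocols, nuclei were purified by fluorescence-activated sorting from frozen punches and libraries came from a low-input, strand-marking kit for total RNA. The authors deposited raw counts per gene, made with featureCounts on mm10 per the submitters' processing notes, which also name DESeq2. Aligner, annotation release and strand setting were not given in the sources used here. FPKM values were deposited as well. The lengths behind them matched full gene spans with introns in GENCODE M21 for 54753 of 55072 genes (tolerance 1e-06), and 549 of 549 member values equalled CPM per kb of span. Identifiers were matched to that release (54349 of 55401 with their version, 55141 without).

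Counts were tested with edgeR 4.0.16 in R 4.3.3: TMM scaling, filterByExpr by group, robust quasi-likelihood fit, two-sided, Benjamini-Hochberg over all genes tested, threshold 0.05. Fits held 32 D1, 29 D2 or all 61 libraries. Standard errors were derived from the log2 fold change and its F statistic. The script was tested on simulated data. Alternatives were DESeq2 1.42.0, limma voom 3.58.1, RLE size factors, no filter, a replicate block, the receptor density as a covariate, leaving out D1 SS replicate 1, and, added after seeing the data, leaving out D1 MS replicate 2 and the removal of the background. No pair of libraries was identical.

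All 9 members are named. Like genes are the 5 with the highest r for Adcy5 and for Adcy2, the other member with the smallest p between cell types. They were taken among genes whose mean level was at least 2 times the mean background, leaving out gene models and ribosomal and mitochondrial names. By median, Sv2b was at 1.89 times the background. Pathway genes named are those called, plus genes picked for their known role after their values were seen. Members and lists were chosen with earlier results of these data known.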

Additional observations from a re-analysis of the deposited data

Results flagged for a closer look

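Among 72 sets of values, 1 for each member in each group, 8 had an extreme library whose gap to its neighbour was large against the range of the group (Dixon's test at 95%), where chance flags about 1 in 20. D1 MS replicate 2 accounts for 5 of them: in that library Adcy5 (13.1 CPM per kb) and Adcy9 (1.68) were above the other D1 MS libraries, and Adcy2 (0.497), Adcy4 (0.478) and Adcy8 (0.276) were below them. Its receptor density was 0.278 CPM per kb, the lowest of that group. D1 SS replicate 1 accounts for 2, with Adcy9 at 2.55 and Adcy1 at 1.29 CPM per kb, both above the other D1 SS libraries. In D2 MS replicate 2, Adcy3 was at 1.09 CPM per kb, above the other D2 MS libraries.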

How the results depend on the processing

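With all libraries and edgeR, no adenylyl cyclase gene was called in any of the 21 comparisons, and that count was kept in 150 of 156 alternative fits. The exceptions were MS against SS in D2 nuclei with DESeq2 (5 called), D2 against D1 in SS with RLE size factors (6) and with DESeq2 (4), and the difference of MS against SS between cell types with DESeq2 (3) and without D1 MS replicate 2 (3). With the replicate number as a block, 4 members were called in MS against SS of D2 nuclei, where 20.9% of all genes were (8595, against 0 without the block). Whether the numbers pair the libraries cannot be told from the labels. Of 202 pairs with the same number, 85 had a correlation of deviations over 0.1, and r ran from -0.668 to 0.769. The median r was 0.039, against -0.001 for pairs with other numbers. A low median cannot exclude that some numbers share a batch. No other call of a member changed under the block. Fold changes of D2 against D1 in SS turned sign for Adcy3 (0.0244), Adcy9 (0.0514) and Adcy6 (0.0169) with the background covariate, and for Adcy6 with DESeq2 (0.0379) and without D1 SS replicate 1 (0.042, against -0.429 without D1 MS replicate 2). That of Adcy5 over the mean of 4 treatments did so with the covariate (0.0115). For D2 against D1 over the mean of 4 treatments the count of all genes called was 253 with the covariate, against 129. The cause was not tested. RLE size factors called none in MS against SS of D2 nuclei. Depth is no limit for most members, with at least 205 counts per library for all but Adcy4, whose lowest count was 24. The background is a limit, most of all for Adcy8 at a median of 0.949 times the receptor density. It also limits Adcy2 and Adcy7 at 1.45 times each and Adcy4 at 1.69 times, and only Adcy5 and Adcy9 had medians above 2 times.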
